A study of Mus musculus with 17 samples.

Results

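The cytosolic ribosome is the particle that translates messenger RNA into protein, and its protein part is made of the Rpl proteins of the large subunit and the Rps proteins of the small subunit. Their genes are among the most highly expressed of a growing cell, and their mRNAs carry a short run of pyrimidines at the 5′ end (the TOP motif), through which growth signals acting on the kinase mTORC1 set how often they are translated. New ribosomes are put together in the nucleolus by a separate set of assembly factors, and many members also exist as processed pseudogenes, intronless copies scattered over the genome.

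The members were taken by name: table entries called Rpl or Rps followed by a digit, or Rplp0, Rplp1, Rplp2 or Rpsa, without the kinases whose names start with Rps6k. Of 13212 entries in the count tables, 79 matched, and these named 78 genes, because Rpl30 had 2 entries and the one with more reads was kept. They comprised 40 canonical proteins of the large subunit, 29 of the small subunit, the 3 stalk proteins, 5 paralogues (Rpl7l1, Rpl22l1, Rpl36al, Rpl39l and Rps27l) and Rps19bp1, a gene named after the protein it binds and not itself a ribosomal protein. Of 77 canonical names looked for, 72 had an entry, and Rpl19, Rpl26, Rpl38, Rps24 and Rps27 were not analysed here. Enough reads for testing were found for 71 of the 78 members. Those without enough reads included Rpl30, Rpl31, Rpl35a, Rpl36a and Rpl39l.

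The study pulled the vena cava of a donor mouse over cuffs into the carotid artery of another mouse and sequenced RNA of the explanted vessel. The groups used here were 4 control vena cavae that had not been grafted, 4 vein grafts taken after 1 h and 5 taken after 6 h of reperfusion, all from male C57BL/6J mice aged 10 to 12 weeks, and each library was a whole vessel wall in which fewer cells of a type and less RNA per cell cannot be told apart. Grafts of the 24 h group could not be matched to their columns and were not used. The labels do not say that each library came from its own mouse, so p-values measure the spread between these libraries. The libraries held 7897624 to 11816124 counts. The titles carry the number 7 after the flow cell for control and 6 h libraries and 8 for 1 h libraries, read here as the sequencing lane, so lane and group cannot be told apart in 1 h against control and in 6 h against 1 h, whereas 6 h and control libraries shared it. On a multidimensional scaling plot, graft 1 h replicate 2 (4.61) and graft 6 h replicate 5 (1.74) stood apart on the second axis from all other libraries, which lay between -1.03 and 0.0512.

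Reads were 50 bases long and those with a low mapping quality were discarded, a filter that can remove reads whose 50 bases occur at a second place in the genome. In mm9 (NCBIM37), a median of 90.0% of the coding 50-base windows of the 76 members with a transcript had an exact copy at another place, and in 25 members every window did. The median was 0% for 75 mitochondrial ribosomal proteins and 0% for 27 translation initiation factors, though some of these factors had many copied windows. Rps3, which lines the channel where the mRNA enters the small subunit, had a copy for 8.05% of its windows, and Rpl11, which carries the 5S RNA into the large subunit together with Rpl5, had one for every window. The middle window of each that lay within a single exon shows the difference. The Rps3 window (chr7:106628527-106628576, minus strand, exon) was found at no second place on the chromosomes searched, most of those that carry members, whereas the Rpl11 window (chr4:135607170-135607219, minus strand, exon) was also found letter for letter at chr3:146502000-146502049, chr5:23515921-23515970 and chr14:49315498-49315547 on the minus strand. The paralogue Rpl36al (chr12:70283946-70283995, minus strand) and its parent Rpl36a (chrX:131121069-131121118, plus strand) are shown over the same coding bases, 129 to 178, with capitals at the 9 positions where they differ.
Rps3: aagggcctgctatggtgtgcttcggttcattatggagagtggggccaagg
Rpl11: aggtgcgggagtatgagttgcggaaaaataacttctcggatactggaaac
Rpl36al: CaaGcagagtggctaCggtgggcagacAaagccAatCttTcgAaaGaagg
Rpl36a: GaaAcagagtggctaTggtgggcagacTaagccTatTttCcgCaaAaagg

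Members with many copied windows had low counts. Over the 76 members, the share of windows with an exact copy and the mean count per coding base had a Spearman rho of -0.76, given as a description, since the members share libraries and the copies of one gene differ in age and number. The 7 members with up to 25% of windows copied had a median of 6154 counts per library, among them Rps3 (7910), Rpl4 (6697) and Rpl8 (6154). They also held Rps19bp1 (231) and Rpl39l (3.85), which had low counts with no copied window. The 25 members with every window copied had a median of 31.1 counts and none above 321. Among these were Rpl5 (21.8 counts), which binds the 5S RNA with Rpl11 (40.1 counts), and Rps6 (170 counts), the target of the S6 kinases. Levels are compared here between groups for the same member and not between members.

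**Figure D1:**
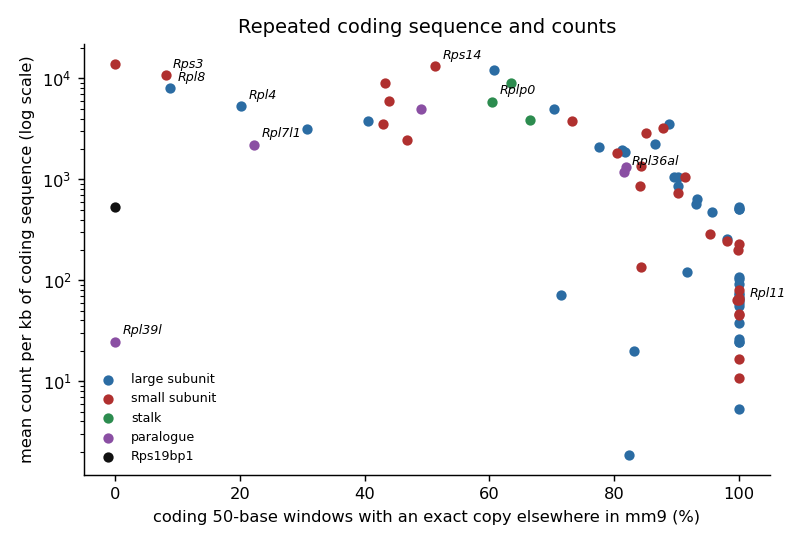
Share of a member's coding 50-base windows that have an exact copy elsewhere in mm9 (x axis, percent) against its mean count per kb of coding sequence over 13 libraries (y axis, log scale), 1 point a member, coloured by role. Members such as Rps3 and Rpl8, with few copied windows, sit at the top, and the 25 members at 100% all sit low. With no copied window, Rpl39l is low and Rps19bp1 lies between.

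At the annotated 5′ ends, 58 of the 78 members had a start in the RefSeq promoter table (GRCm38.p6), and 29 of them (50%) had a run of at least 8 C or T within 25 bases of it on the sense strand. This held for 22.3% of 27025 genes of the table and for 25.4% of 67 mitochondrial ribosomal proteins. The opposite strand had such a run in 8.62% of members and in 24.4% of all genes. The 30 bases around the start, 15 on each side, are shown for Rpl7l1, the only member edgeR called in a comparison, and for those of the most highly counted members whose start is in the table, placed by their match to mm9, with the longest pyrimidine run in capitals. Rpl14 (chr9:120480619-120480648, plus strand) had a run of 14 across its start and Rps9 (chr7:3655628-3655657, plus strand) a run of 9. In Rpl4 (chr9:64021179-64021208, plus strand) a run of 11 ended before the listed start. Rps3 (chr7:106632205-106632234, minus strand) and Rpl7l1 (chr17:46919591-46919620, minus strand) had no run longer than 3 in this window. The mm9 gene annotation puts the 5′ end of Rps3 at 106632248 and that of Rps9 at 3655595. Both lie outside the windows shown, so the bases at those ends were not read.
Rpl14: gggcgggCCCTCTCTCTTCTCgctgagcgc
Rps9: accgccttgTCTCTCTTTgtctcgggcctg
Rpl4: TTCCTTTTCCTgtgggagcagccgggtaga
Rps3: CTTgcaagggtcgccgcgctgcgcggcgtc
Rpl7l1: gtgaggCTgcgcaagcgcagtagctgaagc

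The median log2 fold change at 6 h against control was 0.51 for 26 tested members with a run and 0.56 for 28 without. At 6 h against 1 h the medians were 0.59 and 0.51. The listed start decides the group, so a member whose 5′ end lies elsewhere may be misplaced.

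The question asked of the expression data was how ribosomal protein mRNAs stood in the graft 1 h and 6 h after grafting. As a share of all counts they made up 0.767, 0.937, 0.780 and 1.32% in the control vena cavae, 0.846, 0.900, 0.952 and 0.735% in 1 h grafts and 1.21, 1.05, 0.963, 0.959 and 0.855% in 6 h grafts. The widest 95% Wilson interval of these shares reached 1.32 to 1.33%, for control replicate 4. Such an interval reflects counting error alone and holds no spread between libraries. Duplicates made by PCR carried no mark, so it may be too narrow even for counting error. The shares of the 3 groups overlapped, and control replicate 4 was the highest of all 13. The 100 other entries with most reads took between 30.4 and 33.9% of the counts of a control, between 31.1 and 39.6% of those of a 1 h graft and between 35.6 and 42.5% of those of a 6 h graft.

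After TMM normalization, which scales each library to the bulk of its entries, the summed level of the members was 6980, 7893, 7169 and 11101 CPM (counts scaled to the same effective library size) in control replicates 1 to 4. It was 7795, 9704, 8685 and 6468 CPM in the 1 h grafts and 12767, 11640, 12187, 10832 and 11130 CPM in the 6 h grafts. All 6 h grafts lay above all 1 h grafts and above 3 of the 4 controls, while 1 h grafts and controls overlapped. Control replicate 4 also had the highest summed level of 13 markers of B and T lymphocytes among the 13 libraries (2730 CPM, against 367 to 1250 in the other controls). It also lay outside the other controls in other marker sums. Macrophage markers stood at 1634 CPM against 977 to 1207 CPM, and cardiac muscle markers at 2281 CPM against 11852 to 14434 CPM. Fibroblast markers stood at 3190 CPM against 4366 to 4948 CPM, and mural markers at 582 CPM against 807 to 1174 CPM. Neutrophil markers stood at 168 CPM against 36.2 to 137 CPM. Platelet markers stood at 306 CPM against 379 to 459 CPM, and endothelial markers at 533 CPM against 552 to 639 CPM. Fat cell and erythroid markers lay within the range of the other controls. The part of any of these cells in its ribosomal protein level was not tested.

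**Figure D2:**
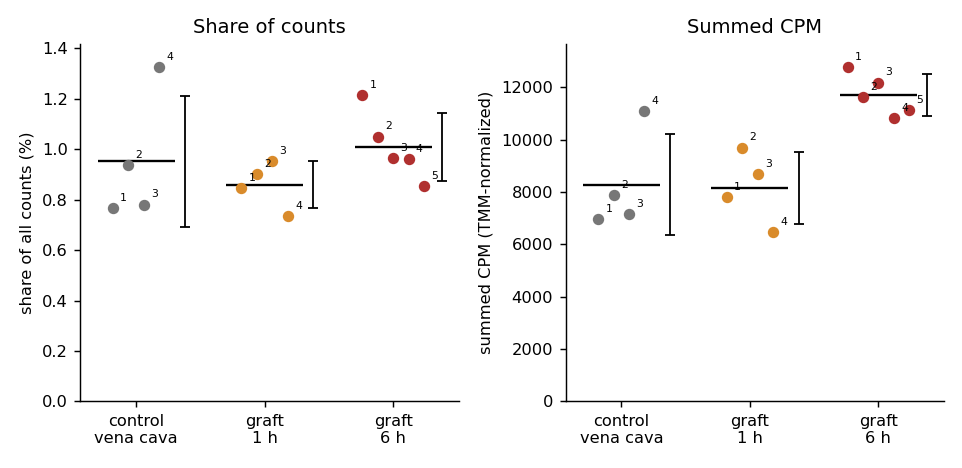
Share of all counts (left, percent) and summed TMM-normalized CPM (right) of the 78 members in each library, numbered by replicate, with the group mean as a line and the SD as a bar beside it. The shares overlap between the 3 groups, and the summed CPM of the 6 h grafts lie above those of the 1 h grafts and of every control but replicate 4.

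At 1 h against control, no member changed by edgeR's quasi-likelihood test at a Benjamini-Hochberg adjusted p under 0.05 over 11123 entries, where 1.12% of entries were called higher and 0.00899% lower. At an unadjusted p under 0.05, 0 members were higher and 1, Rpl7l1, was lower (background 5.53% and 2.45%), and DESeq2 called 0 as well (background 2.6% higher and 0.405% lower), also without control replicate 4 (background 3.04% higher and 0.287% lower). With library totals in place of TMM factors edgeR also called 0 members (background 0.944% higher). In Rpl7l1 and Rpl6 every 1 h graft lay below every control (background 2.09%), and in 0 members above (background 3.55%). Rpl6 is named only for this count. The median log2 fold change of the 71 members was 0.05 against -0.04 over all entries, and 42 of 71 lay above 0, where 48.2% of all entries did. By subunit the medians were 0.02 for 36 large-subunit, 0.05 for 27 small-subunit and 0.11 for 3 stalk proteins. The sign of the median depended on the setting. It was -0.08 with library totals, -0.07 without graft 1 h replicate 2, -0.04 without control replicate 3, -0.03 without control replicate 1, -0.003 without graft 1 h replicate 3 and 0.23 without control replicate 4. The 95% intervals of single members had a median half-width of 0.74, and one of 0.50 in the 23 members of at least 100 CPM. A change smaller than a member's own half-width did not reach even an unadjusted p under 0.05.

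At 6 h against control, 69 of 71 members had a log2 fold change above 0, where 48.4% of all entries did, and the median was 0.53 against -0.05 over all entries. No single member passed the adjusted threshold in edgeR, where 5.58% of entries were called higher and 1.59% lower. At an unadjusted p under 0.05, 17 members were higher and 0 lower, where 12.2% of entries were higher and 7.89% lower. In 20 members every 6 h graft lay above every control, where 9.23% of entries did so, and in 1 member, Rpl15, every 6 h graft lay below (background 5.32%). Rpl15 and Rpl23a were the 2 members below 0, and Rpl15 is named only for this count. By subunit the medians were 0.56 for 36 large-subunit, 0.51 for 27 small-subunit and 0.47 for 3 stalk proteins. Of the 71 members tested, 65 had a mean of at least 10 counts in each of the 3 groups, and their median was 0.51. Among the 23 members of at least 100 CPM, all lay above 0, between 0.19 and 0.72, with an SD of 0.14. In the 13 tested members with under 50% of coding windows copied elsewhere, the median was 0.38 and all 13 lay above 0. Every 6 h graft lay above every control in 1 of these 13. In the 56 with 50% or more copied, the median was 0.62 and 54 lay above 0. Every 6 h graft lay above every control in 19 of these 56, so most of that count came from members with many copied windows.

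**Figure D3:**
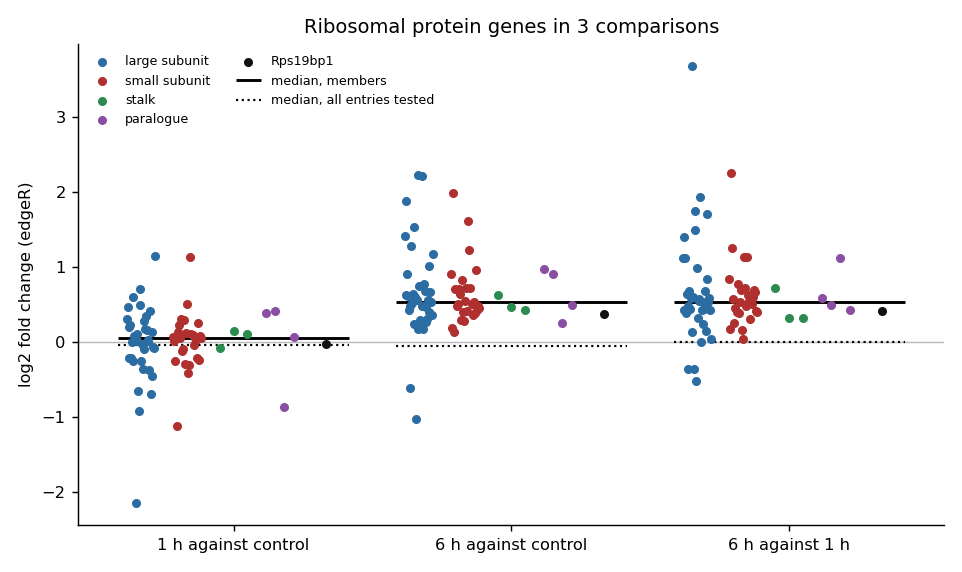
Log2 fold change (y axis, edgeR) of each of the 71 tested members in the 3 comparisons, coloured by role, with the median of the members as a solid line and that of all 11123 entries tested as a dotted line. The members lie around 0 at 1 h against control, and their median is 0.53 both at 6 h against control and at 6 h against 1 h.

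How far the members stood from zero depended on the scaling. With library totals in place of TMM factors, the median at 6 h against control was 0.12, 50 of 71 members lay above 0, none was called (background 4.07% higher and 5.43% lower), 0 had an unadjusted p under 0.05 and the median of all entries moved to -0.46. Relative to the median entry the members stood 0.58 higher with TMM factors (1.49-fold), 0.57 with library totals, 0.58 with upper-quartile factors and 0.58 with DESeq2. A scaling factor moves all entries of a library alike, so this distance could hardly differ between these settings. Its likeness is therefore no separate evidence for a rise. Control replicate 4 also bore on the size. Without it the median was 0.71 with TMM factors and 0.32 with library totals, and edgeR called 3 members (background 4.71%): Rps3 (1.04, adjusted p = 0.0086), Rps14 (0.96, adjusted p = 0.020) and Rplp0 (0.82, adjusted p = 0.047). DESeq2 without this library called 14 of 72 members higher and 0 lower (background 9.53% higher and 3.98% lower).

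**Figure D4:**
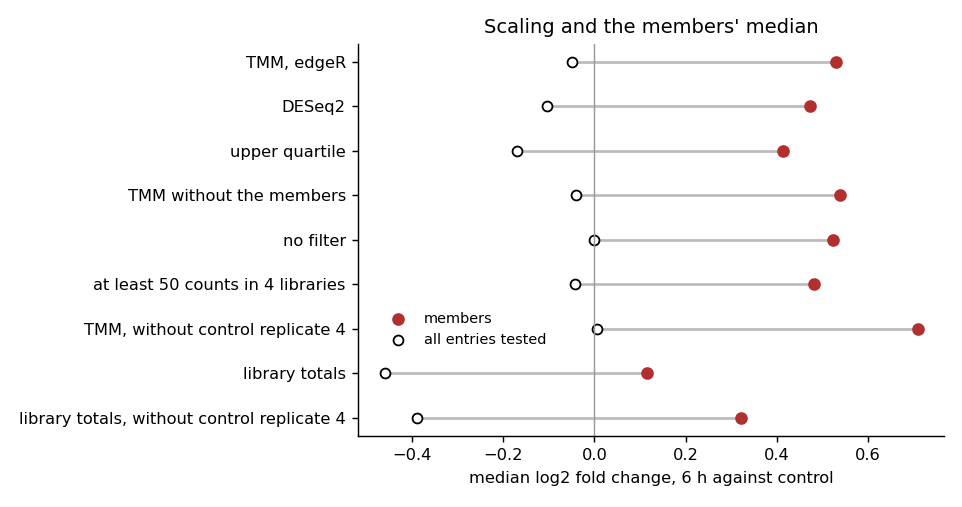
Median log2 fold change at 6 h against control (x axis) of the members (filled points) and of all entries tested (open points) under 9 settings of scaling, tool, filter and libraries (y axis). The distance between the points is 0.58 with TMM factors and 0.57 with library totals, although both medians are lower with library totals. Scaling moves all entries of a library alike, so it can hardly change this distance.

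Rps3, Rps14 and Rps9 were among the small-subunit members with most reads. Rps3 had 1175, 999, 1215, 986 and 992 CPM in 6 h grafts, against 513, 467, 592 and 1030 CPM in controls. Here control replicate 4 alone reached into the range of the grafts (log2 fold change 0.72 ± 0.24, SE, edgeR adjusted p = 0.082). In 1 h grafts Rps3 had 751, 798, 723 and 504 CPM, all below the 6 h grafts. Rps14, known from the human 5q deletion syndrome, had 795, 862, 859, 737 and 806 CPM in 6 h grafts, against 417, 378, 459 and 737 CPM in controls. The lowest graft and control replicate 4 both stood at 737 CPM, the other 3 controls lay well below, and the log2 fold change was 0.71 ± 0.23 (edgeR adjusted p = 0.081). In 1 h grafts Rps14 had 645, 688, 463 and 392 CPM, within the span of the controls. Rps9 averaged 656 ± 104 CPM in 6 h grafts and 469 ± 150 CPM in controls (SD, n = 5 and 4), and its groups overlapped. Rps2 had the smallest adjusted p of all members in this comparison (0.078 by edgeR, log2 fold change 0.83), with 93.6, 129, 103, 87.6 and 105 CPM in 6 h grafts, against 48.4, 51.1, 58.0 and 75.2 CPM in controls. It does not fall under the naming rule and is given because it had that p. Rps6 averaged 21.1 ± 8.76 CPM in 6 h grafts and 16.1 ± 8.25 CPM in controls, and Rpsa, also known as a laminin receptor, 22.1 ± 2.60 CPM in 6 h grafts and 16.2 ± 4.13 CPM in controls (SD, n = 5 and 4). Both had overlapping groups.

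In the large subunit, the members with most reads were Rpl4, Rpl8, Rpl32 and Rpl14. Rpl4, whose product reaches into the tunnel through which the new protein leaves, had 905, 796, 979, 872 and 619 CPM in 6 h grafts, against 541, 610, 608 and 936 CPM in controls. Control replicate 4 lay above all grafts but 1, and the other 3 controls lay below every graft (log2 fold change 0.31 ± 0.22, edgeR adjusted p = 0.49). In 1 h grafts it had 466, 452, 688 and 468 CPM, and 3 of these lay below every control. Rpl8 averaged 745 ± 106 CPM in 6 h grafts and 583 ± 119 CPM in controls, Rpl32 629 ± 71.4 CPM in 6 h grafts and 450 ± 126 CPM in controls, and Rpl14 426 ± 40.4 CPM in 6 h grafts and 306 ± 62.4 CPM in controls (SD, n = 5 and 4). Their log2 fold changes were 0.35, 0.48 and 0.48, and none passed the adjusted threshold. Rpl5 and Rpl11, which as a particle with 5S RNA can bind the p53 regulator Mdm2, had at most 6.48 and 6.84 CPM in any library. Their 95% intervals at 6 h against control ran over -1.42 to 3.44 and -1.42 to 2.67, so that no change of ordinary size was detectable. The highest log2 fold change was that of Rpl27 (2.23, edgeR adjusted p = 0.26), with 5.40 to 15.1 CPM in 6 h grafts, against 0.917 to 2.43 CPM in controls, and the lowest that of Rpl23a (-1.03, edgeR adjusted p = 0.72), with 0.188 to 3.29 CPM in 6 h grafts, against 0.655 to 8.89 CPM in controls. All coding windows of both are copied elsewhere. At 1 h against control, the highest and lowest were Rpl9 (1.145) and Rpl21 (-2.15), which had at most 6.19 and 12.4 CPM in any library. The lowest at 6 h against 1 h was Rpl27a (-0.53), at 23.1 ± 5.53 CPM in 6 h grafts and 33.3 ± 9.15 CPM in 1 h grafts (SD, n = 5 and 4).

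The stalk proteins recruit the translation factors that use GTP. Rplp0, their base, had 856, 819, 760, 662 and 697 CPM in 6 h grafts, against 417, 452, 425 and 664 CPM in controls. The grafts lay above 3 of the 4 controls, with a log2 fold change of 0.63 ± 0.21 (edgeR adjusted p = 0.092). Against 1 h grafts, at 392, 591, 521 and 343 CPM, the 6 h grafts did not overlap (0.72 ± 0.21, edgeR adjusted p = 0.087). Rplp1 averaged 387 ± 52.6 CPM in 6 h grafts and 280 ± 56.3 CPM in controls, and Rplp2 165 ± 14.3 CPM in 6 h grafts and 123 ± 15.5 CPM in controls (SD, n = 5 and 4).

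**Figure D5:**
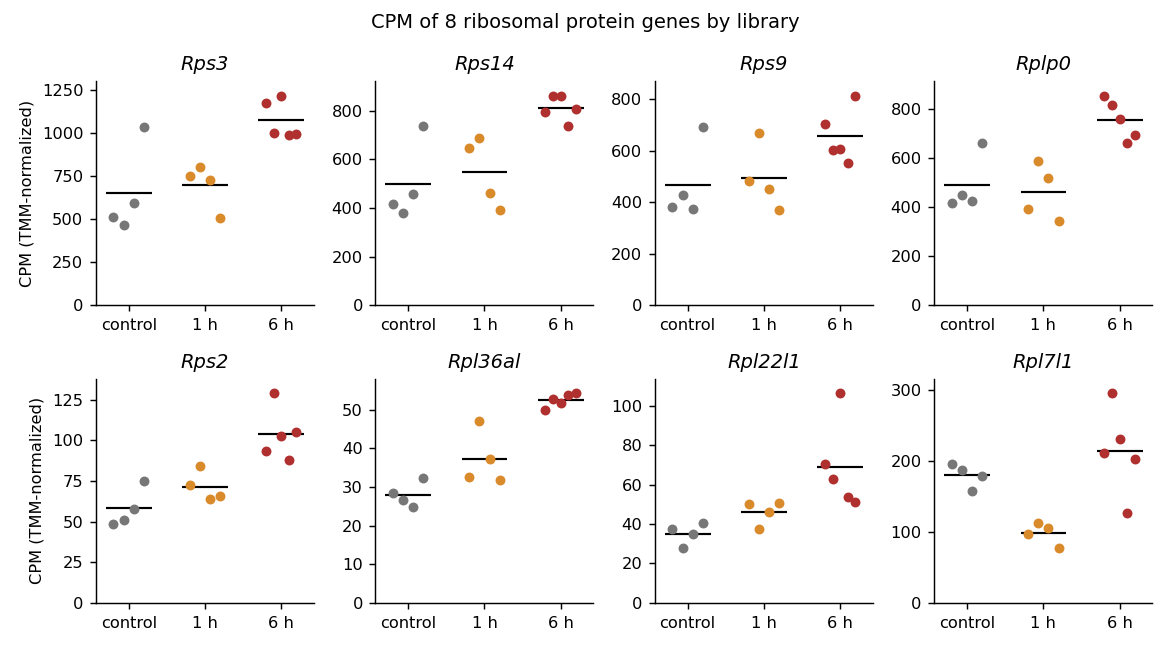
TMM-normalized CPM (y axis, from 0) of 8 members in each library of control, 1 h and 6 h groups, 1 point a library, with the group mean as a line. Rps3, Rps14, Rps9 and Rplp0 have a control library (replicate 4) within or near the range of the 6 h grafts, Rpl36al and Rpl22l1 do not overlap between 6 h and control, and Rpl7l1 is lowest at 1 h.

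Among the paralogues, Rpl7l1 (NM_025433, chr17:46910856-46919605, minus strand), a relative of the yeast ribosome assembly factor Rlp7, had 196, 188, 158 and 179 CPM in controls, 97.3, 113, 106 and 78.0 CPM in 1 h grafts and 212, 296, 231, 127 and 203 CPM in 6 h grafts. Every 1 h graft lay below every control and below every 6 h graft. At 6 h against 1 h it was the 1 member called of 71 (log2 fold change 1.12 ± 0.25, edgeR adjusted p = 0.021), where 2.63% of entries were called higher and 1.02% lower. The call was lost with library totals (0.83, adjusted p = 0.084), in a fit of the 2 groups alone (1.08, adjusted p = 0.064), without graft 1 h replicate 1 (1.11, adjusted p = 0.071), 3 (1.16, adjusted p = 0.0502) or 4 (0.98, adjusted p = 0.097), without graft 6 h replicate 2 (0.98, adjusted p = 0.051), and without graft 1 h replicate 2 and graft 6 h replicate 5 together (adjusted p = 0.0506) in edgeR. Over the 18 alternatives the log2 fold change was 0.83 to 1.26 and the adjusted p 0.0016 to 0.097. At 1 h against control it had a log2 fold change of -0.87 (edgeR adjusted p = 0.20), and at 6 h against control one of 0.25 (edgeR adjusted p = 0.66), which was -0.16 with library totals. Among the groups used, only the 1 h libraries carry the other number in their titles, read here as the lane. Its parent by name, Rpl7, averaged 225 ± 27.7 CPM in 6 h grafts and 142 ± 26.9 CPM in controls (SD, n = 5 and 4), without overlap.

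Rpl36al had 50.0, 52.8, 51.6, 53.7 and 54.2 CPM in 6 h grafts, against 28.3, 26.6, 24.8 and 32.3 CPM in controls. The groups lay apart, and the log2 fold change was 0.91 ± 0.37 (edgeR adjusted p = 0.17). The 1 h grafts, at 32.7, 47.0, 37.2 and 31.8 CPM, lay below every 6 h graft. Rpl36a, whose coding sequence is 87.9% identical to it over 321 bases, had 1 to 8 counts in controls, 0 to 15 in 1 h grafts and 6 to 30 in 6 h grafts and was not tested. Since all its coding windows and 81.6% of those of Rpl36al are copied elsewhere, reads of the pair and of their copies may have been split, and both are uncertain. Rpl22l1, which can stand in for Rpl22 in the ribosome of the mouse, had 70.2, 63.1, 106, 53.7 and 51.0 CPM in 6 h grafts, against 37.6, 27.8, 34.9 and 40.4 CPM in controls. These groups did not overlap either (0.97 ± 0.35, edgeR adjusted p = 0.11), while those of Rpl22 did (0.24 ± 0.27). Rps27l, a target of p53, averaged 162 ± 29.0 CPM in 6 h grafts and 115 ± 11.8 CPM in controls (SD, n = 5 and 4), with overlap. Rpl39 averaged 68.0 ± 5.25 CPM in 6 h grafts and 49.1 ± 16.2 CPM in controls (SD, n = 5 and 4), and Rpl39l, known from the testis, had 26 counts in control replicate 4, 21 in graft 6 h replicate 1 and at most 2 in any other library.

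At 6 h against 1 h, 68 of 71 members lay above 0 (background 50.1%), with a median of 0.53 against 0.00 over all entries. In 24 members every 6 h graft lay above every 1 h graft (background 6.49%), in 0 below (background 3.13%), and 18 were higher and 0 lower at an unadjusted p under 0.05 (background 9.11% higher and 6.53% lower). The 3 members below 0 were Rpl27a, Rpl15 and Rpl23a. In the 13 members with under 50% of coding windows copied elsewhere, the median was 0.42, and 5 lay above without overlap. In the 56 with 50% or more copied, the median was 0.57, and 18 lay above without overlap. This comparison and that with control share the 6 h libraries. With library totals the median was 0.25 and no member was called (background 1.54% higher and 2.15% lower), while 2 were higher and 0 lower at an unadjusted p under 0.05. Rpl21 had the highest log2 fold change (3.69, edgeR adjusted p = 0.16), at 1.06 to 12.4 CPM in 6 h grafts and 0.350 to 0.536 CPM in 1 h grafts, on 3 to 5 counts in each 1 h library. DESeq2 called Rpl7l1, Rpl21, Rps20, Rps18 and Rpl6 higher here (background 4.83% higher and 3.43% lower), and Rpl36al, Rps2, Rpl22l1 and Rpl27 higher at 6 h against control (background 9.28% higher and 5.14% lower). Rps20, Rps18 and Rpl6 are named only for this call.

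Other mRNAs with a TOP motif code for elongation factors and some of their partners. Of 18 tested, 5 were higher and 0 lower at 6 h against control (background 5.58% higher and 1.59% lower), with a median of 0.47. Eef1b2, an exchange factor of elongation factor 1, averaged 423 ± 16.4 CPM in 6 h grafts and 196 ± 64.3 CPM in controls (SD, n = 5 and 4), a log2 fold change of 1.11 (edgeR adjusted p = 0.011). Eif3e, of the scaffold initiation factor 3, rose by 0.93 (edgeR adjusted p = 0.013) and Pabpc1, the poly(A)-binding protein, by 0.92 (edgeR adjusted p = 0.013). Gnb2l1, which codes for the ribosome-bound scaffold Rack1, rose by 1.104 against 1 h (edgeR adjusted p = 0.012). With library totals 1 of the 18 was called at 6 h against control (background 4.07% higher and 5.43% lower) and the median was 0.04. The count was 1 without control replicate 1, 2 without control replicate 2 or 3, and 3 without graft 6 h replicate 3.

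Of 26 translation initiation factors, 5 were higher and 0 lower at 6 h against control (background 5.58% higher and 1.59% lower), with a median of 0.63. Eif1, which guides the choice of start codon, averaged 710 ± 113 CPM in 6 h grafts and 279 ± 61.2 CPM in controls (log2 fold change 1.35, edgeR adjusted p = 0.00037), and Eif1a 673 ± 72.8 CPM in 6 h grafts and 244 ± 83.4 CPM in controls (1.47, edgeR adjusted p = 0.0010). These errors are SDs over 5 grafts and 4 controls. Eif2s2, a subunit of the factor that brings the initiator tRNA, rose by 1.41 (edgeR adjusted p = 0.0015). With library totals 4 of the 26 were called (background 4.07% higher and 5.43% lower) and the median was 0.22. Against 1 h, Eif4e, the cap-binding protein, rose by 2.01 (edgeR adjusted p = 0.0019). An exact copy elsewhere exists for 93.5% of the coding windows of Eif1, 73.6% of Eif2s2, 63.5% of Eif4e and 27.5% of Eif1a. The levels of these factors are therefore uncertain.

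Of the ribosome assembly and nucleolar factors, all 33 tested lay above 0 at 6 h against control (background 48.4%), with a median of 1.58. Of these, 9 were higher and 0 lower (background 5.58% higher and 1.59% lower). The same counts were called with library totals (background 4.07% and 5.43%), where 31 lay above 0 with a median of 1.19. Ddx21, a nucleolar helicase, averaged 229 ± 61.7 CPM in 6 h grafts and 40.9 ± 11.9 CPM in controls (SD, n = 5 and 4), a log2 fold change of 2.49 (edgeR adjusted p = 0.00025). Gnl3, the nucleolar GTPase nucleostemin, rose by 2.51 (edgeR adjusted p = 0.00090), and Nop58, a core protein of box C/D particles that methylate ribosomal RNA, by 3.27 (edgeR adjusted p = 0.0018). Its partner Nop56 averaged 242 ± 86.5 CPM in 6 h grafts and 23.9 ± 8.73 CPM in 1 h grafts (SD, n = 5 and 4), a log2 fold change of 3.34 (edgeR adjusted p = 0.00016). Of the 33, 12 were higher at 6 h against 1 h (background 2.63%). Of 8 host genes of small nucleolar RNAs, 3 were higher at 6 h against control, namely Snhg1 (2.42, edgeR adjusted p = 0.0093), Snhg12 (2.77, edgeR adjusted p = 0.011) and Snhg6 (2.02, edgeR adjusted p = 0.015), and the count fell to 2 without control replicate 1 or 2 or without graft 6 h replicate 3.

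Of 20 regulators of mTORC1 and of TOP mRNAs, 1 was higher at 6 h against control, near the background of 5.58%, with a median of -0.03. This was Rheb, the GTPase that activates mTORC1, at 428 ± 89.0 CPM in 6 h grafts and 165 ± 18.98 CPM in controls (SD, n = 5 and 4). Its log2 fold change was 1.38 (edgeR adjusted p = 0.00080), and it also rose by 1.26 against 1 h (edgeR adjusted p = 0.0039). Of 74 mitochondrial ribosomal proteins, 27 lay above 0 (background 48.4%), with a median of -0.25. Among them 1 was called, Mrpl33 (0.86, edgeR adjusted p = 0.048), below the background of 5.58% higher. No mitochondrial ribosomal protein was called when any 1 control, or any 1 6 h graft but replicate 4, was left out. With library totals 0 were higher and 9 lower (background 4.07% higher and 5.43% lower). At 1 h against control, edgeR called 0 genes in each of these 6 lists (background 1.12% higher and 0.00899% lower). The smallest p of each stayed above the adjusted threshold, as with Eif1 (0.61, edgeR adjusted p = 0.29), Nop56 (-1.35, edgeR adjusted p = 0.14), Eef1a1 (-0.49, edgeR adjusted p = 0.57), Deptor (-2.45, edgeR adjusted p = 0.55), Mrpl45 (-1.11, edgeR adjusted p = 0.23) and Snhg8 (1.09, edgeR adjusted p = 0.75).

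Neutrophil and platelet markers moved with both graft groups (edgeR). Over all entries, edgeR called 1.12% higher and 0.00899% lower at 1 h against control and 5.58% and 1.59% at 6 h against control. At 6 h against 1 h it called 2.63% and 1.02%. DESeq2 called 9.28% and 5.14% at 6 h against control. Library totals gave 4.07% and 5.43% there, and 1.54% and 2.15% at 6 h against 1 h. Unadjusted shares were 12.2% and 7.89% at 6 h against control and 9.11% and 6.53% at 6 h against 1 h. The summed level of 19 neutrophil markers was 15372, 14299, 20738, 8321 and 72331 CPM in 6 h grafts and 36.2 to 168 CPM in controls, where Csf3r and Camp were at 0 in every library, and 13 of 17 tested were higher at 6 h and 10 of 17 at 1 h against control. Their part in the ribosomal protein levels was not tested. Within the 6 h grafts the members' sum was 12767, 11640, 12187, 10832 and 11130 CPM in replicates 1 to 5. Replicate 4 had the lowest of both sums, and replicate 5 the highest neutrophil sum. In 1 h graft replicates 1 to 4 neutrophil markers summed to 11321, 9204, 4948 and 1356 CPM. The members' sums there were 7795, 9704, 8685 and 6468 CPM. In control replicates 1 to 4 the neutrophil sums were 36.2, 82.6, 137 and 168 CPM. The members' sums in these controls were 6980, 7893, 7169 and 11101 CPM. Of 11 tested platelet markers 8 were higher at 6 h and 3 at 1 h against control, and of 10 endothelial markers 1 was higher at 6 h. In 6 h grafts against controls, edgeR called 1 of 9 fibroblast markers and 1 of 7 fat cell markers lower. It called 0 of 8 mural and smooth muscle markers (2 lower at an unadjusted p under 0.05, and 2 called lower by DESeq2 and with library totals) and 0 of 10 macrophage markers (4 lower at an unadjusted p under 0.05, 3 called lower by DESeq2 and 2 with library totals). Of 9 cardiac muscle markers it called 0 (DESeq2 called 1 lower, and 1 had an unadjusted p under 0.05). Of 12 markers of B and T lymphocytes and 5 erythroid markers, 0 were called by either tool and 0 had an unadjusted p under 0.05, and the lymphocyte markers had a median of -1.19. In 6 h grafts against 1 h grafts, edgeR called 3 of 9 fibroblast markers lower, the collagen genes Col3a1, Col1a2 and Col1a1 (8 lower at an unadjusted p under 0.05, and 8 called lower with library totals). Col1a1 had been called higher at 1 h against control (1.00, edgeR adjusted p = 0.044). It averaged 455 CPM in controls, 914 CPM in 1 h grafts and 426 CPM in 6 h grafts. Col1a2 averaged 680, 1245 and 524 CPM in the same order. Col3a1 was also lower at 6 h than in controls (-1.50, edgeR adjusted p = 0.00098). Also lower against 1 h were 2 of 8 mural markers, Acta2 and Tagln, which code for contractile proteins of smooth muscle, and the macrophage marker C1qa, 1 of 10. The mural count fell to 0 without graft 1 h replicate 1 or 4 or graft 6 h replicate 1, 2 or 5, and to 1 without graft 1 h replicate 2 or graft 6 h replicate 3 or 4, and the macrophage count to 0 without graft 1 h replicate 2, 3 or 4 or graft 6 h replicate 1, 2, 3 or 4. Of 7 fat cell markers 1 was higher and 1 lower against 1 h, and 3 of 17 neutrophil markers were higher. The part of these cells in the members' levels was not tested either. The mural markers, which define the media of the vessel, summed to 346 to 1766 CPM in 6 h grafts and 582 to 1174 CPM in controls.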

How the data were processed

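RNA of 13 vessels was amplified with a low-input kit and read as 50-base single reads. The authors aligned reads to mm9 with gsnap and counted them per RefSeq entry with HTSeq 0.5.4p3 without strand, dropping reads of low mapping quality, and deposited raw counts, so overlapping antisense genes cannot be told apart. The deposited tables also hold normalized counts and, from DESeq2 1.14.1, the authors' own comparisons (group means, fold changes, test scores and p-values), none of which was used. In all tables, 30 columns named for 24 h could not be assigned, as each table has 5 and 4 samples are labelled, and were left out.

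Counts of 4 control, 4 graft 1 h and 5 graft 6 h libraries (totals 7897624 to 11816124) were tested in edgeR 4.0.16 by the quasi-likelihood test (filterByExpr, TMM factors, robust fit, no covariate), with Benjamini-Hochberg adjustment over 11123 entries and a threshold of 0.05. CPM are counts divided by the TMM-scaled library size. The test was checked on simulated data. Alternatives were DESeq2 1.42.0, library totals, upper-quartile factors, TMM factors without the members, other filters, 2-group fits, summed entries of a symbol, and leaving out libraries.

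Of 13212 entries, 886 had no symbol in the files and 803 of these were filled from RefSeq. Members, 6 context lists and marker lists of 10 cell types were chosen with earlier results of these data known. Members were named if called, if highest or lowest in a comparison, if among the 4 with the highest mean CPM of a subunit, or if a stalk, 5S particle or kinase target protein, Rpsa, or a paralogue with its parent. Of each context list, up to 3 genes with the smallest p in each comparison were named. Some items that these rules select are not reported here. Coding 50-base windows and starts were read from mm9, and start positions from RefSeq.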

Additional observations from a re-analysis of the deposited data

Results flagged for a closer look

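In 81 groups of values of named members, 5 held a library whose gap to the others was a large part of the group's range, and chance alone gives about 1 in 20. Control vena cava replicate 4 was such a library for Rpl8 (760 CPM, others 510 to 545 CPM), Rplp0 (664 CPM, others 417 to 452 CPM) and Rps9 (691 CPM, others 376 to 427 CPM). Rpl4 had 688 CPM in graft 1 h replicate 3, against 452 to 468 CPM in the other 1 h grafts, and Rpl8 had 445 CPM in graft 1 h replicate 4, against 578 to 601 CPM in the others.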

How the results depend on the processing

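Over 1471 alternatives of single named members, 1448 stayed on the same side of the threshold, 7 lost a call, 16 gained one and 0 reversed a called direction, while 70 changed the sign of a value that was not called. The number of members called at 6 h against control was 4 with DESeq2 (background 9.28% higher and 5.14% lower). It was 3 without control replicate 4 (background 4.71% and 1.21%) and 14 with DESeq2 without this library (background 9.53% higher and 3.98% lower). At 6 h against 1 h it was 5 with DESeq2 (background 4.83% and 3.43%) and 0 with library totals (background 1.54% and 2.15%). It was also 0 with the 2 groups alone or without graft 1 h replicate 2 and graft 6 h replicate 5, and 0 to 1 without single libraries. The members' median at 6 h against control was 0.12 with library totals and 0.32 with these and without control replicate 4, and at 6 h against 1 h 0.25 with library totals. Without single libraries it ran over 0.48 to 0.71 and 0.44 to 0.61. Without the 100 other entries with most reads the members' share was 1.66% in 6 h grafts, 1.32% in 1 h grafts and 1.40% in controls, and without the top 3 members 0.748% in 6 h grafts, 0.649% in 1 h grafts and 0.712% in controls.

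Counts of list genes called are given in both directions together. Over all entries DESeq2 called 2.6% higher and 0.405% lower at 1 h against control and 9.28% and 5.14% at 6 h against control. At 6 h against 1 h it called 4.83% and 3.43%. Library totals called 4.07% and 5.43% at 6 h against control, and 1.54% and 2.15% at 6 h against 1 h. At 1 h against control, DESeq2 called 2 nucleolar factors and 1 mitochondrial ribosomal protein (2 without control replicate 4), and edgeR without single libraries 0 to 1 nucleolar factors. At 6 h against control, DESeq2 called 8 initiation factors, 3 mTORC1 regulators, 6 mitochondrial proteins and 5 small nucleolar RNA hosts, and without control replicate 4 it called 8 initiation factors, 2 mTORC1 regulators and 6 mitochondrial proteins. Library totals gave 1 TOP gene and 9 mitochondrial proteins, and without control replicate 4 they gave 1 TOP gene, 3 initiation factors, 7 mitochondrial proteins and 1 RNA host. Mitochondrial proteins called were 3 with upper-quartile factors or 2 groups, 0 without a filter and 2 with at least 50 counts in 4 libraries. Without single libraries, 1 to 5 TOP genes and 0 to 2 mitochondrial proteins were called. At 6 h against 1 h, DESeq2 called 3 mTORC1 regulators and 2 mitochondrial proteins, library totals 0 TOP genes, 3 initiation factors, 7 nucleolar factors, 0 mitochondrial proteins and 1 RNA host, and upper-quartile factors 3 initiation factors, 0 mitochondrial proteins and 1 RNA host. No filter gave 1 RNA host, the 2 groups alone 2 TOP genes and 0 mitochondrial proteins, and leaving out graft 1 h replicate 2 with graft 6 h replicate 5 gave 2 TOP genes, 0 mitochondrial proteins and 1 RNA host. Without single libraries, 0 to 3 TOP genes, 3 to 5 initiation factors, 0 to 1 mitochondrial proteins and 0 to 2 RNA hosts were called.

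The cause of these differences was not tested. Fits without control replicate 4 that also changed the tool or scaling, and all settings for the lists, were chosen after seeing the data. No paired analysis was possible because the groups compared share fewer than 2 of the numbers that end the titles, and the number read as the lane is the same for every library of a group. For members under 10 CPM the 95% intervals had a median half-width of 2.25 at 6 h against control, so the counts limit what could be detected.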
